A study of Oryza sativa Indica Group with 2 samples.

Results

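The 9 rice loci listed for phenylalanine ammonia-lyase (PAL) were looked up by their locus identifiers in a table that compares chilled leaves of 2 indica rice lines. Of the 9 loci, 6 were in the table and 3 were not, among 3946 loci in all. A locus is in the table if any of its models passed the authors' adjusted p limit, which 8.61% of all models they tested did. That share counts models, of which a locus can have several. The share of all tested loci is not known here, so the count of PAL loci has no like background. The same library had the higher normalised level at each of the 6, and at 58.6% of all loci in the table. Among the 6, the difference ran from 1.38-fold at LOC_Os02g41650 (95% counting interval 1.33 to 1.44) to 2.58-fold at LOC_Os04g43800 (2.28 to 2.93). These values use the authors' scaling. Centring the log2 ratios on the table's median of -0.30 kept the direction but reduced them, at LOC_Os02g41650 from -0.47 to -0.16.

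PAL removes ammonia from phenylalanine to give cinnamic acid, the step by which carbon leaves the aromatic amino acids for the phenylpropanoids. From there the route leads to lignin of the cell wall, to flavonoids and to phenolic compounds of defence. PAL genes of plants are commonly induced by wounding, pathogens, strong light and low temperature. Rice carries several copies, and 4 of the listed ones have neighbouring identifiers on chromosome 2. Numbered names of rice PAL genes differ between sources, so the loci are given here by identifier.

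The lines were 2 IRGA genotypes whose label names begin alike, one described as cold-tolerant and one as cold-sensitive. Both were chilled at 10 °C for 6 h at about 20 days of age, at the stage of 3 leaves, with light at 40 µmol m-2 s-1. Each line gave 1 poly-A library, made from the leaves of 9 plants, and unchilled plants are not among the samples used here. The table therefore compares 2 chilled lines and cannot show a response to cold. Neither the table nor the labels say which line is the numerator of its ratio. Library A here means the numerator and library B the denominator, with no line assigned to either.

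Reads were recovered from the deposited log2 values. The scaled size of library A was 12846997 reads and that of library B was 12152372. A level is given in RPM, which scales the reads of a locus to an equal depth by those sizes. Ratios are log2 of A over B, so a negative ratio means a higher level in B. Intervals cover counting error only. Each line has 1 library, which leaves the spread between plants unknown, and no test between the lines was run. An exact binomial p between the 2 libraries was computed for the PAL models only to set beside the authors' p-values. Every model in the table passed the authors' limit of 0.05 on the adjusted p, and these models are 8.61% of the 67393 tested by the authors. Rubisco activase (LOC_Os11g47970) and the Rubisco small subunit (LOC_Os12g17600), transcripts typical of leaves, had 27181 and 2886 RPM in A and 28822 and 6588 RPM in B.

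The tandem group on chromosome 2 held most of the PAL reads. In RNA of whole leaves, a lower level from fewer cells of a type and one from less RNA per cell cannot be told apart. LOC_Os02g41650 had 4615 reads in A and 6040 in B, or 359 RPM (349 to 370) and 497 RPM (485 to 510). Its log2 ratio, -0.47 (-0.52 to -0.41), was the smallest difference of the 6 loci, and it became -0.16 when centred and -0.27 with the table's read totals. LOC_Os02g41630 had 2658 and 4339 reads, or 207 RPM (199 to 215) and 357 RPM (347 to 368), and a log2 ratio of -0.79 (-0.86 to -0.72), or -0.48 when centred. These 2 neighbours were thus both higher in B, but not by the same amount. Their log2 ratios differed by 0.32, and the ratio of LOC_Os02g41630 was the lower one, with a 99.7% interval of 0.19 to 0.45 for the difference.

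Another locus of this group, LOC_Os02g41670, was read far less often. It had 75 reads in A and 128 in B, or 5.84 RPM (4.59 to 7.32) and 10.5 RPM (8.79 to 12.5). Its log2 ratio, -0.85 (-1.28 to -0.43), was the least precise of the family and became -0.55 when centred. Among models with a total within 10% of its 203 reads, the smallest absolute log2 ratio in the table was 0.59, so a smaller difference at that depth would hardly have been listed. The remaining locus of the group, LOC_Os02g41680, was not in the table. Summed over the 3 listed loci, the group had 7348 reads in A and 10507 in B. These were 89.6% and 86.2% of the reads of the 6 PAL loci, and the log2 ratio of the sums was -0.60 (-0.64 to -0.55). Without transcript lengths, which were not used here, these shares count reads and do not rank the genes by transcript number.

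**Figure D1:**
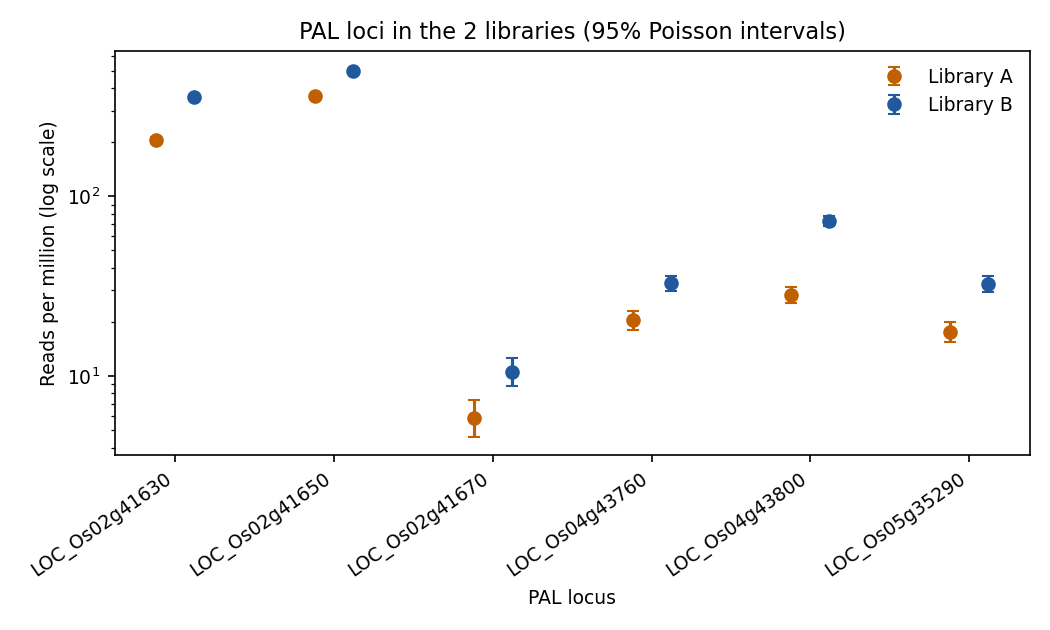
Level of each of the 6 PAL loci in library A and library B, in RPM on a log axis, 1 library per line, with 95% Poisson intervals. The point for B lies above that for A at each locus, from 10.5 against 5.84 RPM at LOC_Os02g41670 to 497 against 359 RPM at LOC_Os02g41650.

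The pair on chromosome 4 held the largest difference of the family. LOC_Os04g43800 had 362 reads in A and 885 in B, or 28.2 RPM (25.3 to 31.2) and 72.8 RPM (68.1 to 77.8). Its log2 ratio was -1.37 (-1.55 to -1.19), the only one of the 6 with at least 1 log2 between the libraries. Over the whole table, a share of 17.6% of loci was that much higher in B. Of 408 models with a total within 10% of its 1247 reads, 8 (1.96%), its own model among them, had a ratio as low. The same share was 8.26% for LOC_Os02g41630, 13.1% for LOC_Os05g35290 and 17.2% for LOC_Os04g43760, and it was 27.8% for LOC_Os02g41650 and 33.1% for LOC_Os02g41670. Each share counts the locus itself, and that of LOC_Os02g41650 counts its identical models 1 and 3. The other locus of the pair, LOC_Os04g43760, had 263 and 398 reads, or 20.5 RPM (18.1 to 23.1) and 32.8 RPM (29.6 to 36.1), and a log2 ratio of -0.68 (-0.91 to -0.45), or -0.37 when centred. The pair was thus higher in B at both loci, and the difference between their log2 ratios was 0.69 (99.7% interval 0.26 to 1.13).

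LOC_Os05g35290, the single listed locus of chromosome 5, had 226 reads in A and 397 in B. These were 17.6 RPM (15.4 to 20.0) and 32.7 RPM (29.5 to 36.0), with a log2 ratio of -0.89 (-1.14 to -0.65), or -0.59 when centred. In reads it was close to LOC_Os04g43760, and the 99.7% interval of the difference between their log2 ratios, -0.28 to 0.71, included 0. LOC_Os11g48110 and LOC_Os12g33610 were not in the table. A locus missing from the table may have differed too little for the authors' limit or have had few or no reads, and these cannot be told apart.

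All 6 loci in the table were higher in B and 0 in A, where 58.6% of all 3946 loci were higher in B. Among models with a total within 10% of that of a PAL locus, the share higher in B varied. It was 77.1% for LOC_Os02g41630, 72.2% for LOC_Os02g41650 and 68.8% for LOC_Os02g41670. For LOC_Os05g35290 it was 60.8%, for LOC_Os04g43760 58.4% and for LOC_Os04g43800 37.5%. The 6 stayed higher in B when ratios were centred on the median of the table. Centring left 50.2% of all loci on that side, a near-equal split that a median brings about by itself. The 6 also stayed higher in B when the table's own read totals set the scale, which left 55.8%. Their median log2 ratio was -0.82 (-0.52 when centred), beside -0.31 over the 3846 loci read in both libraries. In the order of the ratios, LOC_Os04g43800 was lowest, followed by LOC_Os05g35290, LOC_Os02g41670, LOC_Os02g41630, LOC_Os04g43760 and LOC_Os02g41650. Of all loci in the table, 10.4% had a lower ratio than the first of these and 40.5% a lower ratio than the last. The authors' adjusted p-values from edgeR for the model that stands for each locus ran from 2.7e-109 for LOC_Os02g41630 to 0.00115 for LOC_Os02g41670 in the authors' deposited table. They rest on 1 library per line. For the 9 PAL models the authors' unadjusted p-values were 1.04 to 1.56 times an exact binomial p computed from the recovered reads alone. Those p-values thus hold counting error almost alone and leave out the spread between plants.

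**Figure D2:**
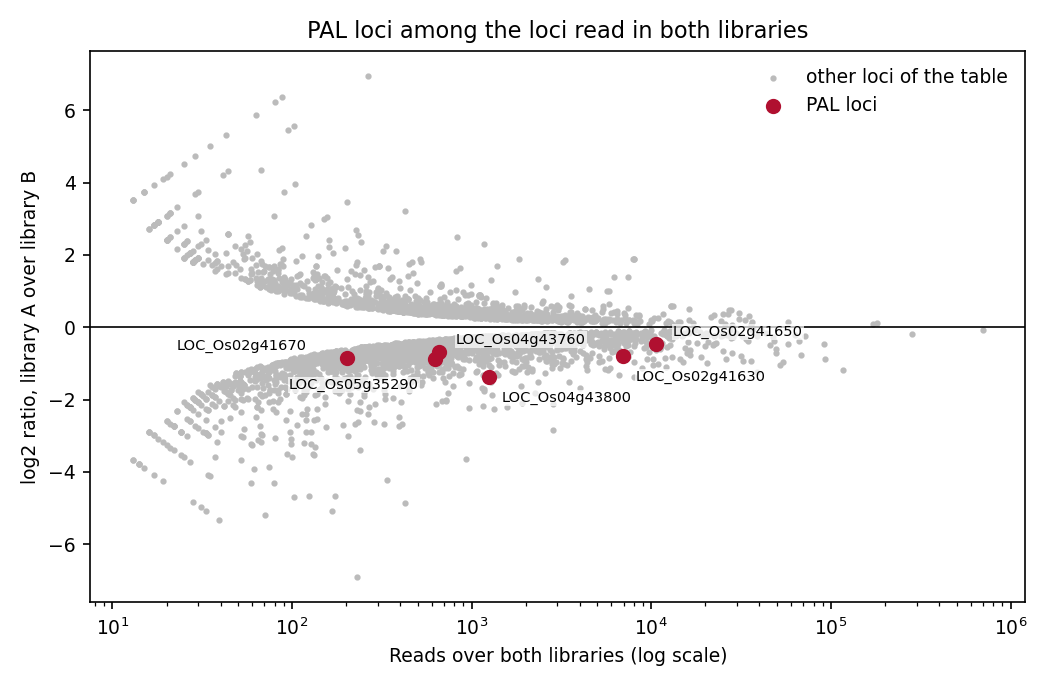
Log2 ratio of library A over B against the reads of a locus over both libraries (log axis), with the 6 PAL loci in red and the other loci read in both libraries in grey. The empty wedge around 0 is where loci missed the authors' adjusted p limit, and the PAL loci lie below 0 from 203 to 10655 reads.

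The differences between the PAL loci do not depend on how the libraries were scaled, since a scaling shifts each ratio alike. All 15 pairs of loci were compared by an exact conditional interval, at 99.7% each so that the 15 together keep 95%. In 6 pairs the interval of the difference excluded 0. In 4 of them LOC_Os04g43800 was the locus with the lower ratio, against LOC_Os02g41630 by 0.58 (0.30 to 0.87), LOC_Os02g41650 by 0.90 (0.62 to 1.18), LOC_Os04g43760 by the amount given above and LOC_Os05g35290 by 0.48 (0.03 to 0.92). The other 2 pairs set LOC_Os02g41650 above LOC_Os02g41630 and above LOC_Os05g35290, in the latter case by 0.42 (0.06 to 0.80). In the other 9 pairs the interval included 0. Of neighbours in the order of the ratios, only LOC_Os04g43800 and LOC_Os05g35290 had an interval that excluded 0, with its lower end at 0.03. The 5 pairs with LOC_Os02g41670 were among these 9, with an interval as wide as -0.70 to 0.76 against LOC_Os05g35290, so that its ratio cannot be placed among the others. As the loci were compared over 2 libraries, these intervals describe those libraries and not the lines. They treat reads as independent and do not allow for PCR copies or for reads shared between PAL copies. The comparison of pairs was not part of the planned design.

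Copies in a gene family can be given the same reads, and how reads with several matches were treated is not given in the sources used here. No PAL locus had the read numbers of another PAL locus, whether equal, within 1% or within 5% in both libraries. One PAL locus, LOC_Os04g43760, had both numbers within 1% of a locus outside the family, LOC_Os06g39330 with 261 and 397 reads. Such matches were common, with 36.2% of all loci matching at least 1 other locus that closely. Unequal totals do not show that the PAL loci shared no reads, since part of the reads of a locus may match a copy.

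Alternative coding-sequence models did share reads within a locus. Models 1 and 3 of LOC_Os02g41650 had identical numbers, and model 2 had 4430 reads in A against 5746 in B, which put its log2 ratio at -0.46. The family thus had 9 models in the table for 6 loci. Model 2 of LOC_Os04g43760 had only 32 and 69 reads beside the 263 and 398 of model 1, and its log2 ratio of -1.19 (-1.84 to -0.56) had an interval that included the -0.68 of model 1. LOC_Os02g41630 was represented by its model 2.

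The loci of the table nearest to the PAL genes did not have a single direction. Nearest means by locus number, and the farthest was 1700 numbers from LOC_Os02g41630, so loci missing from the table can lie between. The 3 nearest loci of the table on each side of every PAL locus, leaving out PAL itself, came to 18 loci, of which 9 were higher in B and 9 in A, with a median log2 ratio of -0.01. On chromosome 2 the neighbours were higher in B at 4 of 6 loci, with LOC_Os02g41580, just before the tandem group, at -1.06 (-1.49 to -0.64). On chromosome 4 it was 3 of 6. LOC_Os04g43890, the next locus of the table after LOC_Os04g43800, stood at 0.43 (0.27 to 0.59) from 783 reads in A against 550 in B. On chromosome 5 it was 2 of 6, and LOC_Os05g35320, next after the PAL locus, stood at 0.92 (0.48 to 1.37). The ratios of LOC_Os04g43800 and LOC_Os05g35290 thus each had the opposite sign to that of the next locus of the table after it. The next locus of the table after the chromosome 2 group had the same sign as the group, at -0.50 (-0.72 to -0.28). When ratios were centred, 7 of the 18 neighbours were on the B side and 11 on the other. Scaling by the read totals of the table again put 9 on each side. The files pair none of these neighbours with a gene name.

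**Figure D3:**
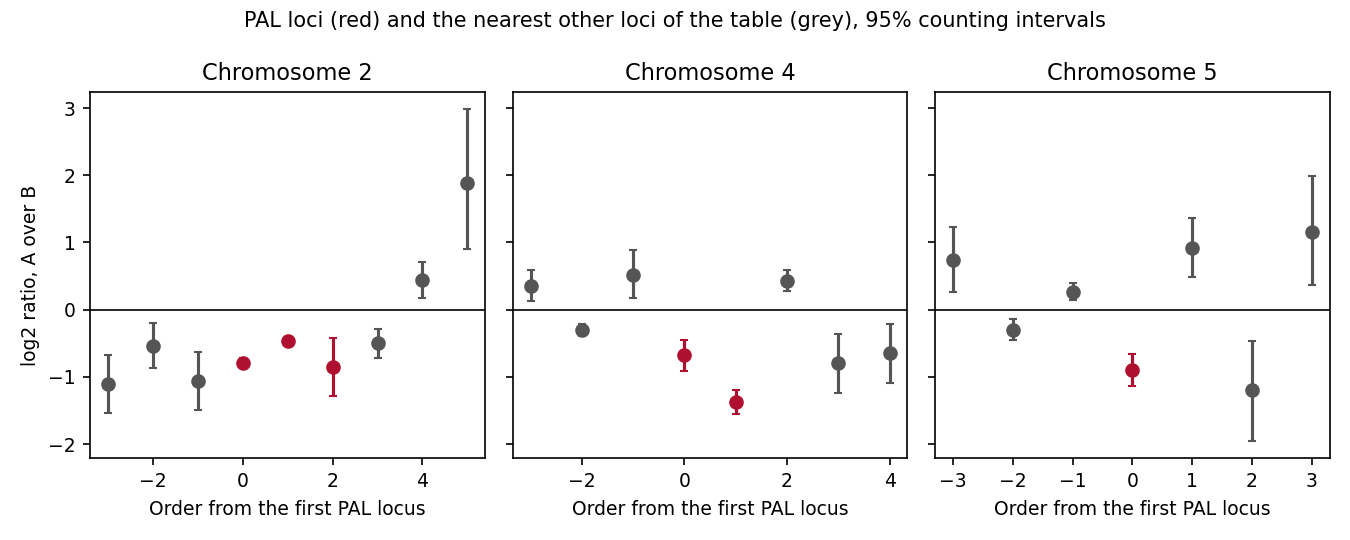
Log2 ratio of library A over B for the PAL loci (red) and the nearest other loci of the table (grey) on chromosomes 2, 4 and 5, in the order of their locus numbers from the first PAL locus, with 95% counting intervals. The PAL loci lie below 0 in each panel, while 9 of the 18 grey loci lie above 0.

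Genes of the steps before and after PAL were taken from a list of 32 loci, of which 11 were in the table. Of all tested models 8.61% passed the authors' limit, a share of models and not of loci. Since the list was chosen with earlier results of these data known, a shared direction in it is a description only. All 11 were higher in B and 0 were higher in A, while 58.6% of all loci in the table were higher in B (50.2% when centred). Their median log2 ratio was -1.04, and it was -0.65 over those with at least 100 reads. Leaving out loci whose read numbers were within 1% of those of another locus left 7 of the 11, again all higher in B. Of 7 loci before PAL, 2 were in the table. The chorismate mutase gene LOC_Os01g55870, for the first step from chorismate to phenylalanine, stood at a log2 ratio of -0.56 (-0.76 to -0.36) from 354 reads in A against 493 in B. LOC_Os04g33390, for arogenate dehydratase, which makes phenylalanine, had 215 and 430 reads and stood at -1.08 (-1.32 to -0.84). The gene of EPSP synthase was not in the table.

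Of 9 loci of the steps right after PAL, 4 were in the table. Cinnamate 4-hydroxylase (C4H), which acts on the product of PAL, was represented by LOC_Os05g25640, whose log2 ratio was -0.65 (-0.80 to -0.50) from 609 reads in A against 903 in B. Of 5 genes of 4-coumarate:CoA ligase (4CL), which activates the acid for both lignin and flavonoids, 3 were in the table. 4CL2 (LOC_Os02g46970) had 146 and 312 reads and a ratio of -1.18 (-1.47 to -0.89). 4CL4 (LOC_Os06g44620) had 391 and 459 reads and a ratio of -0.31 (-0.51 to -0.11), which centring on the table's median reduces to -0.01. 4CL1 (LOC_Os08g14760) rested on 8 and 29 reads, at -1.94 (-3.28 to -0.77).

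Further along, 4 of 15 monolignol loci were in the table. Their log2 ratios ran from -0.53 (-0.78 to -0.27) for the hydroxycinnamoyl transferase gene LOC_Os02g39850 to -1.35 for the cinnamoyl-CoA reductase gene LOC_Os08g34280. The latter rested on 27 reads in A and 65 in B, with an interval of -2.05 to -0.68. The genes LOC_Os06g06980 and LOC_Os08g38910 for caffeoyl-CoA O-methyltransferase, which methylates lignin precursors, stood at -0.55 (-0.79 to -0.30) and -1.04 (-1.20 to -0.88). Chalcone synthase (LOC_Os11g32650), which commits 4-coumaroyl-CoA to flavonoids, had 2296 reads in A against 5681 in B. That was 179 RPM (171 to 186) against 467 RPM (455 to 480), and the log2 ratio was -1.39 (-1.46 to -1.32). Side by side, LOC_Os04g43800 stood at -1.37 and the more abundantly read PAL loci of chromosome 2 at -0.79 and -0.47. The remaining 21 loci of the list, among them those for ferulate 5-hydroxylase, caffeate O-methyltransferase and cinnamyl alcohol dehydrogenase, were not in the table.

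**Figure D4:**
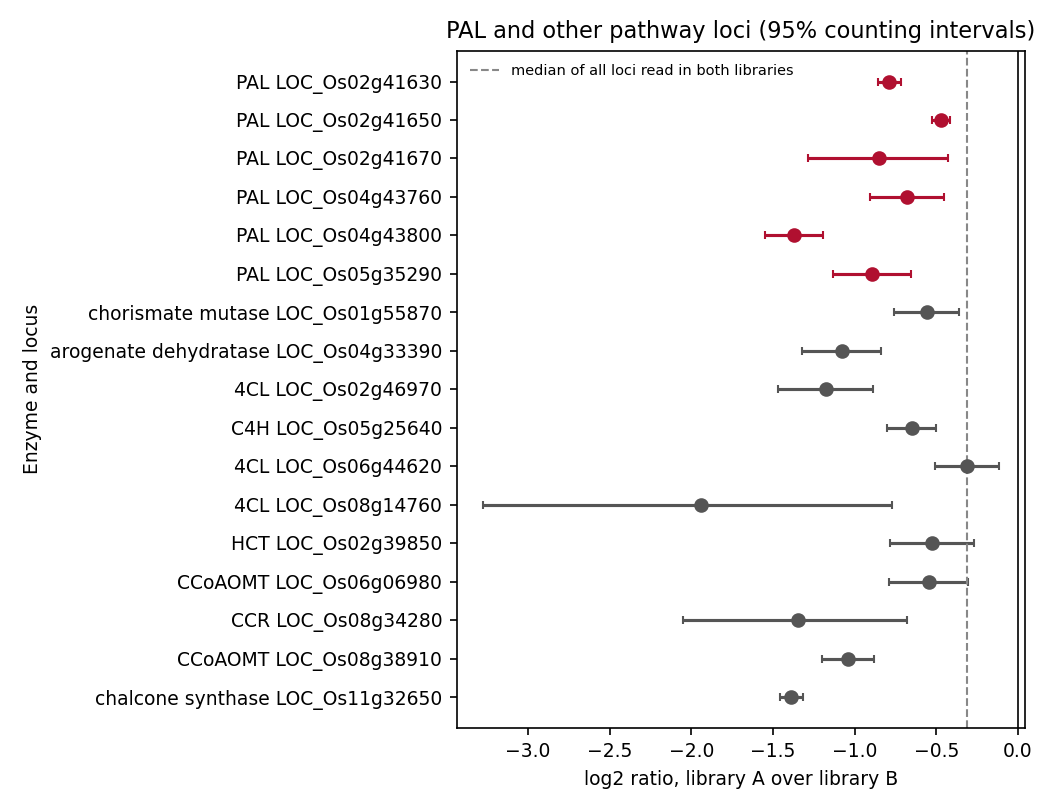
Log2 ratio of library A over B with 95% counting intervals for the 6 PAL loci (red) and the 11 other pathway loci found in the table (grey), ordered by step. Each point lies below 0, and the dashed line marks the median of -0.31 over all loci read in both libraries.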

How the data were processed

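Poly-A RNA from chilled leaves was sequenced as single-end reads of 100 bp, per the labels' protocols. Bowtie 0.12.7 and edgeR are named in the submitters' processing notes. For the genome build, annotation release, strand setting and dispersion the entry is the same: not given in the sources used here. Whether both lines aligned equally well to the reference was not tested. The authors deposited 1 table of their own comparison with 2 log2 columns, the mean log2 share of reads and the log2 fold change, and with a raw and an adjusted p-value per coding-sequence model, per the file headers.

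Shares per library were solved from the log2 columns and divided by the smallest step, which gave whole reads for 100% of values within 1e-06 of a read. The model with most reads stands for a locus. Level intervals are exact Poisson and ratio intervals exact Clopper-Pearson, both at 95%, and PCR copies make them too narrow. Pairs of loci were compared by conditional odds ratios (SciPy 1.17.1). The recovery of reads and the ratio intervals were checked on simulated independent Poisson counts. Those had no PCR copies or shared reads, so the check covers the code and not the data. The planned design foresaw no test, since each line has 1 library.

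Genes named are all PAL loci and listed pathway loci in the table; of the nearest neighbours, and of loci with like read numbers, at most 2 per direction are named because the files pair them with no gene. The members and lists were chosen with earlier results of these data known. Enzyme names come from field knowledge; the 5 4CL names were found in the RefSeq gene table of assembly ASM3414082v1 on the same chromosome, within 2.00% of its length. Alternatives covered scaling, pseudocounts of 1 and 0.1 RPM, the choice of model, read minimum, fold limit and matching loci.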

Additional observations from a re-analysis of the deposited data

How the results depend on the processing

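All 6 PAL loci stayed higher in library B under both other scalings, and with every model counted all 9 PAL models were higher in B. Both scalings were taken from models that passed the authors' limit. They therefore cannot show how far the authors' scaling is off. The remaining alternatives could not change a direction. An equal pseudocount in both libraries keeps the sign, the minimum of 100 reads removed no PAL locus, and the lowest numbered model gave the same ratios. Centring on the table's median of -0.30 moved the PAL median from -0.82 to -0.52, with single loci from -1.07 (LOC_Os04g43800) to -0.16 (LOC_Os02g41650), and the share of all loci higher in B from 58.6% to 50.2%. The table's own read totals gave a PAL median of -0.62. A limit of 1 log2 left 1 PAL locus, at -1.37, and 6 of the 11 other pathway loci. Of all loci in the table, 17.6% were that much higher in B. The 6 pathway loci had a median of -1.26, which the limit itself bounds. The pathway alternatives were added after the data had been seen: its count became 17 with every model counted and 7 without loci matching another within 1%, and its median became -0.65 at 100 reads or more. No paired analysis was possible because each line has 1 library. Depth limits LOC_Os02g41670 most, and the 3 loci that were not in the table have no value.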

Other observations

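For each PAL locus, the 3 loci of the table nearest in both log2 ratio and log2 mean level were found. Over 2 libraries such likeness rests on 2 values per locus and is a description only. None of these 18 loci was another PAL gene or a listed pathway gene. The nearest lay at 0.01 log2 units from LOC_Os04g43760 and at 0.10 from LOC_Os04g43800.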
